A study of Homo sapiens with 6 samples.

Results

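The genes described here encode the numbered subunits of the RNA exosome, EXOSC1 to EXOSC10, in A549, a cell line derived from a human lung adenocarcinoma. They were found by their symbols in the annotation of the array. That annotation named 11 probe sets for 10 genes, out of 53617 probe sets and 14884 named genes in all. A gene counted as named where a probe set named it alone. The probe set of a gene was chosen by its mean level on the 6 arrays, the highest being taken, so levels entered the choice whereas the difference between the groups did not. Only EXOSC10 had a second probe set. Cells were grown attached to plates for 7 days in DMEM with serum, either with LA717, an agar of low molecular weight, at 0.03% (w/v), or with the same medium and Milli-Q water as control. Each group had 3 arrays. Nothing in the labels says whether these came from separate cultures. The study describes its arrays of attached and spheroid cultures as independent experiments, but does not say this of attached cells with LA717. The p-values therefore measure only the spread between these samples, which may be technical. A label of the LA717 arrays speaks of low-attachment plates, in conflict with their titles and the protocol, which give attachment plates.

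The RNA exosome is a multi-subunit machine that degrades or trims RNA from the 3′ end. In human cells a ring of subunits related to bacterial RNase PH (EXOSC4 to EXOSC9) and a cap of RNA-binding subunits (EXOSC1 to EXOSC3) form a channel that has no catalytic activity of its own. The nucleases EXOSC10, mostly nuclear and nucleolar, and DIS3 or DIS3L carry out the cleavage. The complex matures the 5.8S ribosomal RNA, trims small nucleolar RNAs, removes short-lived nuclear transcripts and, with the SKI complex, degrades mRNA in the cytoplasm.

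The exosome genes were slightly higher in the mean with LA717, but no single gene had a 95% interval that excluded 0. Of the 10 genes, 9 had a positive difference (LA717 minus control) and 1 a negative one, in a range from −0.02 to 0.20 on the log2 scale. The median was 0.11, and the median over all 14884 genes was −0.01. Among all genes the difference was above 0 in 47.9%. By limma, fitted and adjusted over all probe sets, 0 of the 10 genes passed an adjusted p under 0.05, where the background was 0% of 53617 probe sets. At an unadjusted p under 0.05 there were also 0 of 10, with 5.31% of all probe sets. The adjusted p of the members ran from 0.92 to 0.996. Each interval of the difference included 0. In RNA from a whole culture, a change in every cell and a change in some of them cannot be told apart. The 95% intervals of all 10 genes lay within a 1.5-fold change in either direction, as did those of 91.6% of all genes. These genes were proposed with results of these arrays known, so their common sign is a description and no test of the complex as a whole.

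**Figure D1:**
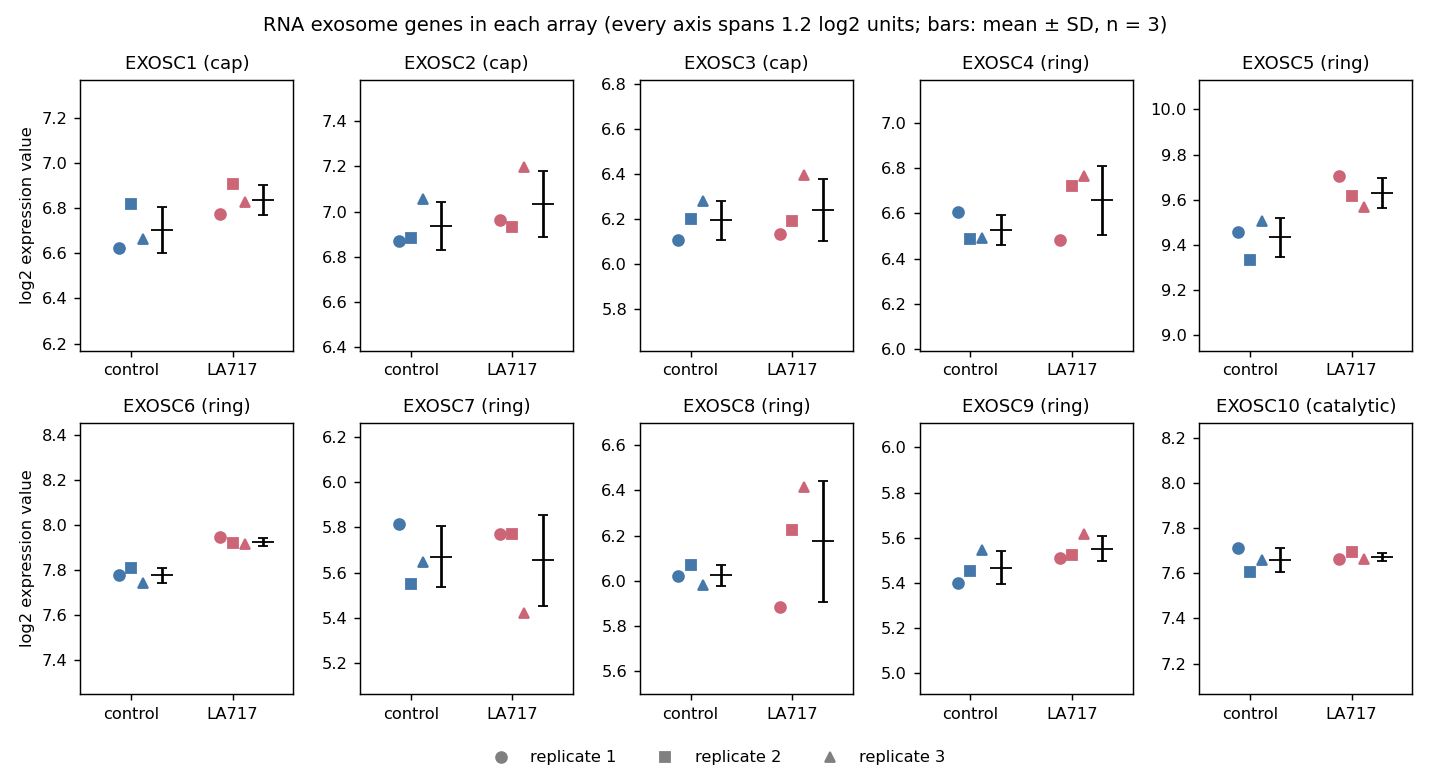
Log2 expression value (vertical axis) of each RNA exosome gene in the 3 control arrays (blue) and the 3 LA717 arrays (red), with marker shapes for the replicate number and black bars for mean ± SD. Every panel spans 1.2 log2 units, and the groups are fully apart only for EXOSC5 and EXOSC6.

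Ring subunits held the 3 greatest differences. Of the 6 genes, 5 were on the positive side, with a median of 0.14. EXOSC5, which encodes the subunit also known as RRP46, was at 9.46, 9.33 and 9.51 in control replicates 1 to 3 and at 9.70, 9.62 and 9.57 with LA717 (log2 expression value). All LA717 arrays lay above all control arrays. The difference was 0.20 (SE 0.091, 95% interval −0.02 to 0.41), with an adjusted p of 0.92 by limma. EXOSC6, which encodes the MTR3 subunit, was at 7.78, 7.81 and 7.74 in control and at 7.95, 7.92 and 7.91 with LA717. Here too the groups did not overlap, and the spread within them was small (SD 0.034 in control and 0.018 with LA717, n = 3). The difference of 0.15 (SE 0.079, interval −0.04 to 0.34) had an adjusted p of 0.92. These 2 of 10 members were the ones with LA717 arrays wholly above control. The same arrangement was found in 4.86% of all genes, and with so few members no more can be read from the count.

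The other ring genes had overlapping groups. EXOSC8, encoding the RRP43 subunit, was at 6.02, 6.07 and 5.98 in control, and at 5.88, 6.23 and 6.41 with LA717. Its LA717 arrays were spread on both sides of the control arrays, with the largest SD among the members (0.27, against 0.045 in control). Its mean difference was 0.15 (interval −0.18 to 0.48). The upper bound corresponds to 1.39-fold, the highest among the 10 genes. EXOSC4, which encodes RRP41, showed the same order of LA717 arrays, with 6.60, 6.49 and 6.49 in control, 6.48, 6.72 and 6.77 with LA717 and a difference of 0.13 (interval −0.12 to 0.38). LA717 replicate 1 was the lowest of all 6 arrays for both genes, and replicate 3 the highest.

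EXOSC9, which encodes PM/Scl-75, an autoantigen in polymyositis-scleroderma overlap, was at 5.40, 5.45 and 5.55 in control and at 5.51, 5.53 and 5.61 with LA717. Only control replicate 3 lay among the LA717 values. The difference was 0.08 (interval −0.12 to 0.29). EXOSC7, which encodes RRP42, was the single member with a negative difference, −0.02 (interval −0.32 to 0.29). It was at 5.82, 5.55 and 5.65 in control and 5.77, 5.77 and 5.42 with LA717, so that the highest array was a control and the lowest LA717 replicate 3.

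In the cap the differences of 3 of 3 genes were positive (median 0.10), and in each the groups overlapped. EXOSC1, encoding the CSL4 subunit, was at 6.62, 6.82 and 6.66 in control and 6.78, 6.91 and 6.82 with LA717. Control replicate 2 reached into the LA717 values, and the difference was 0.13 (interval −0.08 to 0.35). EXOSC2, encoding RRP4, was at 6.87, 6.88 and 7.06 in control and at 6.96, 6.93 and 7.20 with LA717, a difference of 0.10 (interval −0.16 to 0.35). In both groups replicate 3 was the highest. EXOSC3, encoding RRP40 and known for variants that cause pontocerebellar hypoplasia, was at 6.105, 6.198 and 6.279 in control and at 6.13, 6.19 and 6.39 with LA717. The difference of 0.05 (interval −0.20 to 0.29) was smaller than the SD of either group (0.087 and 0.14, n = 3).

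EXOSC10, the catalytic member of the set and the homologue of yeast Rrp6, gave nearly equal means. It was at 7.71, 7.61 and 7.66 in control and at 7.66, 7.69 and 7.66 with LA717. The LA717 values all lay inside the range of the control arrays. The difference was 0.01 (SE 0.081, interval −0.18 to 0.20, limma adjusted p = 0.996). Its second probe set, which had the lower signal and was therefore left aside, was at 4.02, 4.06 and 4.03 in control and 4.24, 3.93 and 4.04 with LA717, a difference of 0.03 (interval −0.21 to 0.27). A probe set has its own response to its transcript, so the levels of different genes were not ranked. All 10 members had a mean above the median of all named genes (4.71, log2).

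**Figure D2:**
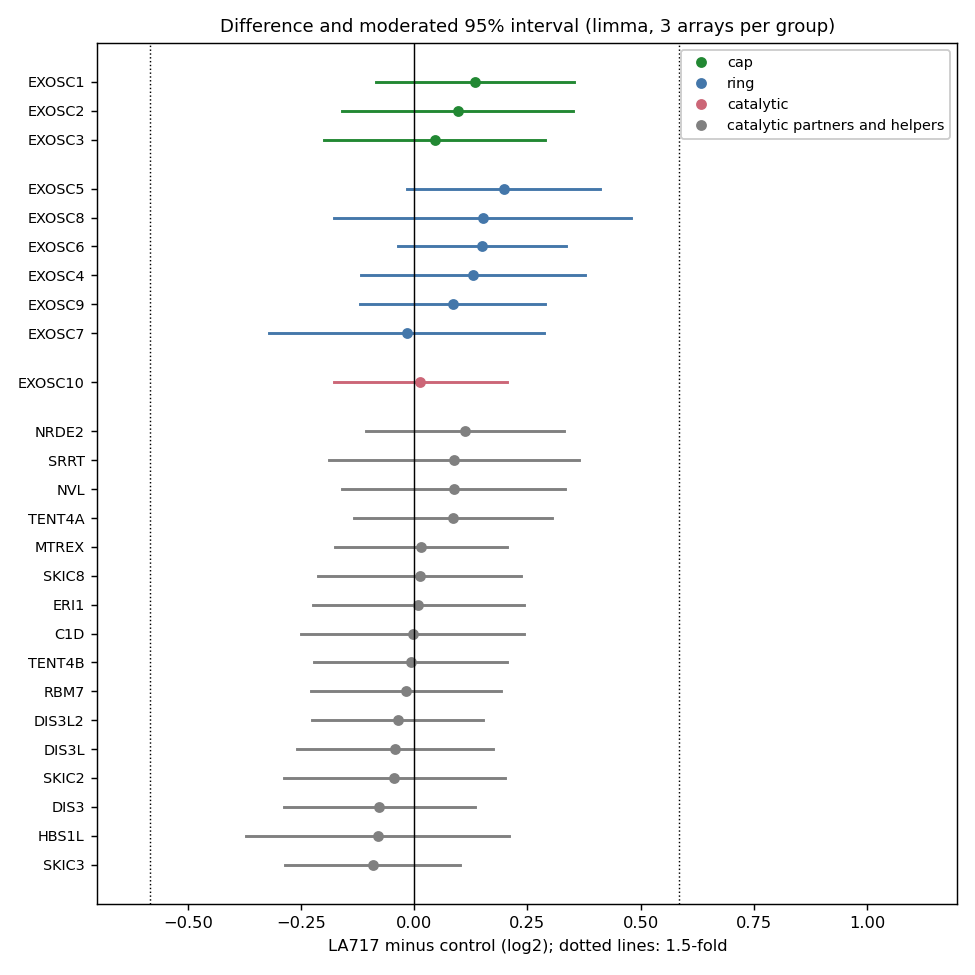
Difference LA717 minus control (log2, horizontal axis) with the moderated 95% interval from limma for the 10 exosome genes, coloured by role, and for 16 genes of catalytic partners and helpers (grey), 3 arrays per group. Every interval crosses 0 and ends inside the dotted lines at 1.5-fold.

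Ordered by their difference, the genes ran from EXOSC5 through EXOSC8, EXOSC6, EXOSC1, EXOSC4, EXOSC2, EXOSC9, EXOSC3 and EXOSC10 to EXOSC7. The step from one gene to the next was smaller than the standard error of either at each place, so the order of neighbours has no weight. Even the interval of EXOSC5 at the top overlapped that of EXOSC7 at the bottom. The contrast between the ring (median 0.14) and EXOSC10 (0.01) was not tested.

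To show the regulatory sequence next to these values, the 150 bases before the transcription start were read from RefSeq (GRCh38.p14) for both genes whose groups were apart, EXOSC5 and EXOSC6, and for both genes with the smallest differences, EXOSC7 and EXOSC10. Sequences are given 5′ to 3′ on the strand of the gene. Capitals mark matches, on either strand, to the GC box (GGGCGG), the CCAAT box (CCAAT), an ETS site (CCGGAAG), the E box (CACGTG), the TATA box (TATAAA), the core of the NRF1 site (TGCGCA) or of a YY1 site (AAGATGG). These letters were chosen after the expression values had been seen, and matches did not overlap in the 4 windows shown.
EXOSC5 (chr19:41397360-41397509, minus strand): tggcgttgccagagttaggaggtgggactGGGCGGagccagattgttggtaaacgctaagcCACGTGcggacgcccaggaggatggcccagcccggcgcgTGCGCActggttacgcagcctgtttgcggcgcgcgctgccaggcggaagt
EXOSC6 (chr16:70251941-70252090, minus strand): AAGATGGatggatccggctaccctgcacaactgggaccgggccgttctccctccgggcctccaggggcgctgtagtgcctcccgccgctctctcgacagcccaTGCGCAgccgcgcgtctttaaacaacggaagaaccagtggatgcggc
EXOSC7 (chr3:44976094-44976243, plus strand): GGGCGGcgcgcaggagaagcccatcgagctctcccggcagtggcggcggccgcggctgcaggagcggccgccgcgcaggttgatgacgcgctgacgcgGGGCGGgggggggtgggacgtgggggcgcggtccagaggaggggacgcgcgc
EXOSC10 (chr1:11099870-11100019, minus strand): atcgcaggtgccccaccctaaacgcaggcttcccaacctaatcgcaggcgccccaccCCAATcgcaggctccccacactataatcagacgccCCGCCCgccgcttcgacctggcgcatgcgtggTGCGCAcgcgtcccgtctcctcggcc

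The EXOSC5 window held 1 GC box, 1 NRF1 core and 1 E box, the sequence bound by MYC and other bHLH factors. The EXOSC6 window held 1 NRF1 core and 1 YY1 core. EXOSC7 had 2 GC boxes and no other match, and EXOSC10 had 1 GC box, 1 CCAAT box and 1 NRF1 core. The GC content was 66.7% in EXOSC5 and 65.3% in EXOSC6, slightly below the 68% of EXOSC10 and the 80% of EXOSC7 (median of all windows 60%). Sequences of this kind were matched for 8 of the 10 members, in 9 windows since EXOSC3 had a pair of starts. Windows on chromosome 8, which carries EXOSC4, were left out, both for the members and for the shares over all windows. A GC box was present for 6 of these 8 genes, where 36.8% of 35116 promoter windows of the same length held one. A CCAAT box was present for 3 of 8 (23.5% of windows) and an NRF1 core for 4 of 8 (5.21%). Of the 8, the E box was found for EXOSC5 alone (4.57%) and the YY1 core for EXOSC6 alone (2.04%). The TATA box (6.71%) and the ETS site (6.85%) were found for 0 of 8. The GC box and the other motifs are plain matches of letters, and no binding was measured.

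Averaged over the 10 genes, each taken relative to its control mean, the control arrays stood at 0.00, −0.02 and 0.02 and the LA717 arrays at 0.04, 0.11 and 0.14 (log2). In this mean the LA717 arrays all lay above the control arrays. The same average over all named genes was between −0.004 and 0.003 in control and between −0.015 and 0.007 with LA717. Over genes at or above the median level it was between −0.003 and 0.005 in control and between −0.040 and 0.008 with LA717. An average over so many genes scatters less than one over 10, so neither measures the spread to be expected of 10 genes. LA717 replicate 3 stood highest. Of the 10 genes 5 had their highest value on that array, and without it the median over the members was 0.06 instead of 0.11. Without LA717 replicate 1 it was 0.13, and with each control array left out it was between 0.08 and 0.12. The median stayed above 0 without any 1 of the 6 arrays.

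Single genes depended on the same arrays to unequal degrees. EXOSC6 stayed between 0.13 and 0.17 and EXOSC5 between 0.15 and 0.23 when any 1 array was left out. For EXOSC8 the difference went from 0.03 without LA717 replicate 3 to 0.30 without LA717 replicate 1, and for EXOSC4 from 0.08 to 0.22 without the same arrays. EXOSC2 fell to 0.01 and EXOSC3 to −0.03 without LA717 replicate 3. EXOSC7 went the other way, to 0.10 without that array and 0.06 without control replicate 1. EXOSC10 was between −0.01 and 0.04. EXOSC1 was between 0.10 and 0.19, and EXOSC9 between 0.05 and 0.12.

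**Figure D3:**
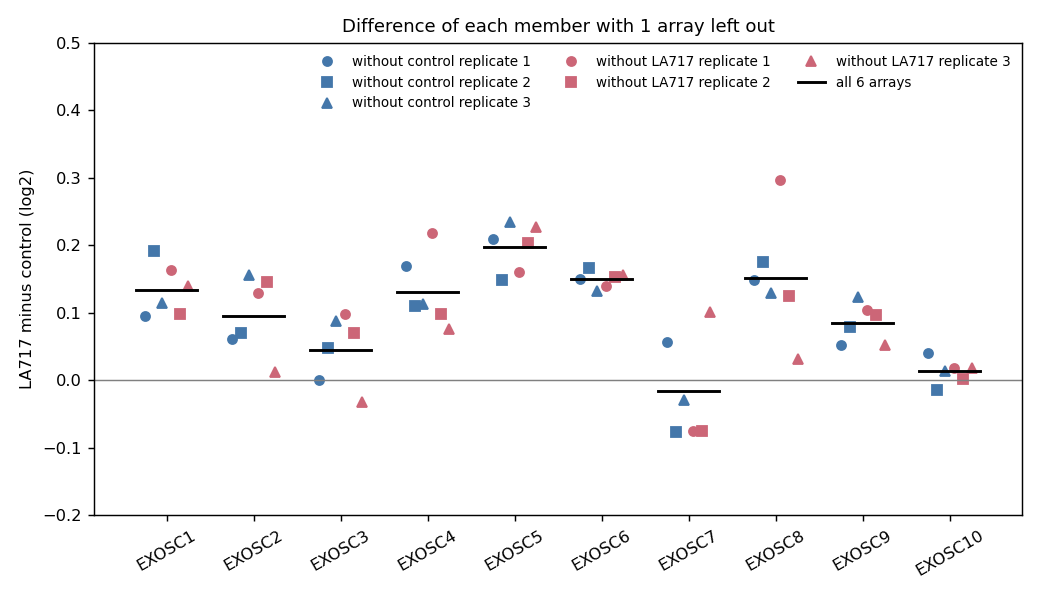
Difference LA717 minus control (log2, vertical axis) of each exosome gene with 1 array left out (blue for a control array, red for an LA717 array, marker shape for its replicate number), with black lines for all 6 arrays. EXOSC5 and EXOSC6 stay close to their lines, whereas EXOSC8 runs from 0.03 to 0.30.

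Within the groups, the correlations between subunits had both signs. Across the 6 arrays, after subtraction of the group means, 20 of 45 pairs of members had a positive correlation, with a median r of −0.05 and a range from −0.88 to 0.93. All pairs share the same 6 arrays, and subtraction leaves few free values, so these correlations are descriptions only. EXOSC2, EXOSC3 and EXOSC9 formed the closest trio, with r of 0.93 for EXOSC2 and EXOSC3, 0.93 for EXOSC3 and EXOSC9 and 0.92 for EXOSC2 and EXOSC9. EXOSC4 and EXOSC8 had r = 0.88. EXOSC7 ran against EXOSC3 (r = −0.88) and EXOSC2 (r = −0.75), and EXOSC5 against EXOSC1 (r = −0.77). Genes outside the complex were compared with the mean of the members if their level was at or above the median of all named genes. Of those, CAMK1 (r = 0.99), ZNF668 (r = 0.99) and RDX (r = 0.98) were most like it over 6 arrays. Among the 7432 genes compared, 100 had an r over 0.9. Group means were not subtracted here, so this r includes the difference between the groups. With 6 values and so many genes it is a description only.

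Among the catalytic partners and helpers of the complex, differences of both signs were about equally frequent. Of 24 such genes 16 were measured, which here and in the lists below means that a probe set named the gene alone. Of these, 7 had a positive and 9 a negative difference. The median was −0.01, or 0.02 without LA717 replicate 1 and −0.05 without LA717 replicate 3. The contrast with the numbered subunits was not tested. By limma 0 of 16 passed the adjusted p in either direction and 0 had an unadjusted p under 0.05. DIS3, the main processive nuclease of the nuclear complex, was at 8.51, 8.60 and 8.50 in control and at 8.43, 8.38 and 8.56 with LA717, a difference of −0.08 (interval −0.29 to 0.13). DIS3L, its cytoplasmic counterpart, gave −0.04 (interval −0.26 to 0.17). MTREX, the helicase that feeds RNA into the nuclear exosome, gave 0.01 (interval −0.18 to 0.20), with 8.89, 8.93 and 8.94 in control and 8.89, 8.99 and 8.93 with LA717.

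Both nucleases and the helicase had overlapping groups and intervals that crossed 0. C1D, a nuclear cofactor of EXOSC10, gave −0.003 at a low signal (3.14 to 3.42 in control). The greatest positive differences among the helpers were 0.11 for NRDE2, a nuclear protein that binds MTREX, 0.09 for SRRT, the ARS2 protein of the cap-binding complex, and 0.09 for NVL, an AAA ATPase of ribosome assembly. The greatest negative ones were −0.09 for the SKI complex gene SKIC3, −0.08 for the ribosome rescue factor gene HBS1L and −0.08 for DIS3. All of these intervals crossed 0.

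In the lists of other RNA decay routes the medians were slightly negative, and in that of ribosomal RNA processing slightly positive. Their size varied with the array left out, and only that of deadenylation changed sign. In decapping and 5′ to 3′ decay, 9 of 11 measured genes (19 listed) were negative (median −0.03), with PATL1 at −0.15 and DCP1B at 0.13. In deadenylation 4 of 5 (18 listed) were negative (median −0.06), with PARN at −0.16 and CNOT9 at −0.11. In nonsense-mediated decay 4 of 5 (14 listed) were negative (median −0.06), with UPF1 at −0.11 and EIF4A3 at −0.08. Among all genes 47.9% were positive, and 44.7% of those at or above the median level of named genes (median difference −0.01). With so few genes measured, the counts do not describe whole pathways. Of 27 measured genes (43 listed) for ribosomal RNA processing and the core proteins of snoRNPs 20 were positive (median 0.05). They included NOP53, a ribosome assembly factor whose yeast homologue brings the exosome to pre-ribosomes, at 0.19, and the box C/D methyltransferase gene FBL at 0.17. NOP53 was at 9.14, 9.09 and 9.09 in control and at 9.32, 9.31 and 9.25 with LA717. FBL was at 10.38, 10.36 and 10.45 in control and at 10.54, 10.59 and 10.57 with LA717.

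For NOP53 and FBL the groups were apart with LA717 higher, as they were for LAS1L, which acts in the processing of the second internal spacer (difference 0.14), and RRP15 (0.08), both named after their values were seen. These are 4 of the 27 genes, beside 4.86% of all genes. Across these 4 lists 0 genes passed the adjusted p by limma, and 1 gene, NOP53, had an unadjusted p under 0.05. Without LA717 replicate 1 the median was 0.01 for deadenylation, −0.004 for nonsense-mediated decay and 0.09 for ribosomal RNA processing. Without LA717 replicate 3 it was 0.02 for ribosomal RNA processing and −0.006 for decapping, which went to −0.09 without LA717 replicate 2. No test was made between the lists.

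**Figure D4:**
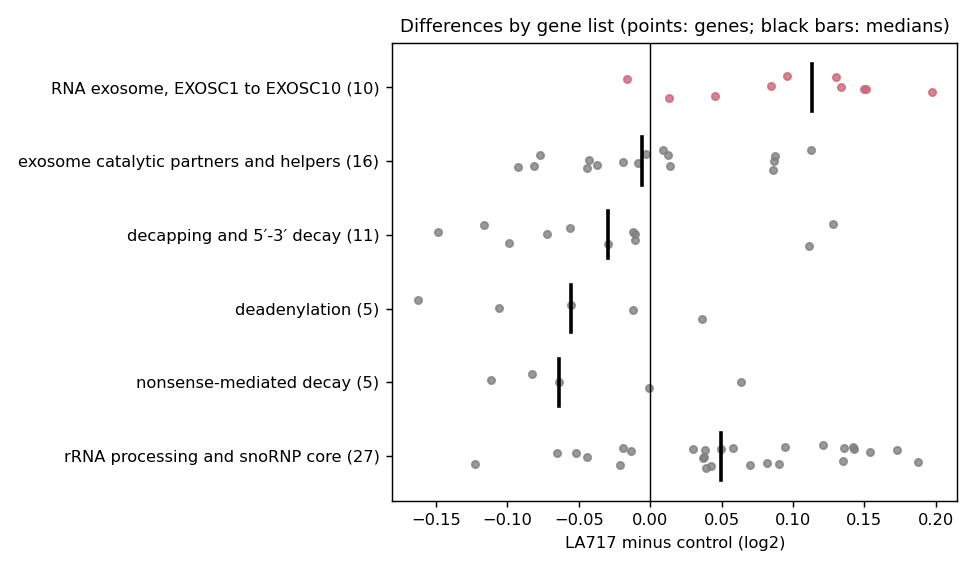
Difference LA717 minus control (log2, horizontal axis) for the measured genes of each list, with the number of genes in brackets and black bars for medians (vertical scatter within a list has no meaning). The exosome median is at 0.11, that of ribosomal RNA processing at 0.05, and those of the other 4 lists between −0.06 and −0.01.

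The 6 arrays were alike as a whole. Array medians ranged from 3.19 to 3.23 (log2), and correlations between arrays over all probe sets from 0.9899 to 0.9913. With 3 arrays per group the precision of each value above is limited. Of 15 epithelial and A549 marker genes 7 were measured, with array means from 8.14 to 8.29 in control and from 8.04 to 8.13 with LA717. The lower means with LA717 went with the fibrinogen genes FGA (−0.28) and FGB (−0.36), the only 2 of the 7 with groups apart, whereas EPCAM and 4 keratin genes had differences between −0.09 and 0.06. KRT18 was at 11.05 to 11.23 in control. Endothelial markers (3 of 5 measured) had array means of 3.001 to 3.09 in control and 2.96 to 3.02 with LA717, and fibroblast markers (2 of 6) 3.78 to 4.11 and 3.64 to 3.79. The fibroblast mean joins unlike levels, with LUM at 6.02 to 6.39 and DCN at 1.53 to 1.84 in control. Leukocyte markers (2 of 6) were at 5.68 to 5.76 and 5.28 to 5.67, with CD14 bright at 7.77 to 7.97 in control and LYZ at 3.56 to 3.63. The study lists LYZ among genes raised in A549 spheroids with LA717 relative to attached cells, so LYZ is not particular to leukocytes here. By limma 0 of the markers passed the adjusted p, and 4 (FGA, FGB, LUM and LYZ) had an unadjusted p under 0.05. Each of these lists had a negative median, and their part in the exosome values was not tested.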

How the data were processed

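Total RNA of 3 control and 3 LA717 samples was analysed on GeneChip Human Gene ST arrays, per the study's methods. The authors deposited a log2 value for each probe set on each array, from Affymetrix Expression Console. Its version, summarisation and normalization are not stated, and the log2 scale was read from the range of values. No genome build is stated for the values. They were used as deposited, with no pseudocount. The 37519 probe sets that did not name exactly 1 gene were tested but not named. Symbols were updated through NCBI RefSeq. Control probe sets are not marked, so none was left out.

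Groups came from sample titles. The 6 arrays were fitted together in R 4.3.3 with limma 3.58.1 (functions lmFit and eBayes), two-sided and without a block, with Benjamini-Hochberg adjustment over 53617 probe sets and a threshold of 0.05. The criterion of the study, a 2-fold change, was met by 0 of 10 members and 0 of the 14884 named genes (0%). It was met by 87 of all probe sets, none of them the probe set chosen for a named gene. Members and gene lists were chosen with earlier results of these data known. Genes of the lists were named by rule: DIS3, DIS3L, MTREX, C1D and MPHOSPH6 where measured, the 3 greatest differences of each sign among helpers, 2 per other list, and the 3 genes most correlated with the member mean. These last were sought only among genes with a level at or above the median of all named genes. Marker genes, LAS1L and RRP15 were named after their values were seen. In simulated data of 53617 probe sets, 50 each were changed 1.5-fold, 2-fold, 3-fold and 4-fold at once. There limma found 7, 33, 48 and 48 of them, and made 6 false calls. The larger changes ease the adjusted threshold for the smaller ones. These shares are therefore not the power in the real arrays, where 0 probe sets passed. Promoter windows came from RefSeq (GRCh38.p14), without those on chromosome 8, and figures from matplotlib 3.10.9. Alternatives were other eBayes settings, array weights, a replicate block, 2 normalizations, 2 filters, each array left out, and averaging the probe sets of a gene.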

Additional observations from a re-analysis of the deposited data

How the results depend on the processing

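The counts of probe sets and of members past the adjusted p by limma were 0 under each of 14 alternative fits, and the number of members changed at least 2-fold, or 1.5-fold, was 0 wherever it was counted. The number of members with a positive difference was 9 under every alternative except 10 without control replicate 1 and 8 without control replicate 2. The median over members was 0.113 and was lowest at 0.064 (without LA717 replicate 3) and highest at 0.134 (without LA717 replicate 1) when single arrays were left out, and lay between 0.11 and 0.122 otherwise. Of 150 member values under 15 alternatives, 146 kept their sign. The other eBayes settings, the replicate block and the 2 filters leave each difference as it was, so they could not turn a sign. Averaging probe sets could alter EXOSC10 alone. All 4 reversals came with a single array left out. The sign turned for EXOSC7 without control replicate 1 (0.0564) or LA717 replicate 3 (0.1004), for EXOSC10 without control replicate 2 (−0.0139) and for EXOSC3 without LA717 replicate 3 (−0.0319). When single arrays were left out, EXOSC7 had values from −0.0768 to 0.1004, EXOSC10 from −0.0139 to 0.0401 and EXOSC3 from −0.0319 to 0.0983. For EXOSC5 and EXOSC6, whose groups were apart, no single array could reverse the sign. The cause was not tested. Deviations of same-numbered arrays correlated at 0.024, 0.015 and 0.033 over all probe sets. Arrays of unlike number were not compared, so these values cannot decide whether the numbers pair samples. The main fit had no block because the labels give no pairing. In the fit with a replicate block, 0 probe sets and 0 members passed. The median was 0.113, which a block cannot change in this balanced design. List medians under alternatives were computed after seeing the data. Without single arrays, that of the helpers was between −0.045 and 0.018, that of deadenylation between −0.095 and 0.012, that of decapping between −0.091 and −0.0064, that of nonsense-mediated decay between −0.072 and −0.0037 and that of ribosomal RNA processing between 0.0157 and 0.0855. Signal over background is not part of the deposited values, so how far a probe set follows its transcript was not assessed.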
